A study of Mus musculus with 7 samples.

Results

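The lysosomal genes described here are 39 of the 49382 genes measured by RNA-seq in mouse embryonic fibroblasts (MEFs), and they were taken by symbol from a list of lysosomal enzymes, membrane proteins, proton pump subunits and the transcription factors that act on them. They comprised 7 cathepsins, 7 glycosidases, 7 other proteins of the lysosomal lumen, 6 membrane proteins, 9 subunits of the proton pump and 3 MiT-TFE factors. Their levels were compared between control MEFs and MEFs under 6 kinds of stress, to ask how fibroblasts respond to a changed environment. All cells were wild type primary cultures from mid-gestation embryos of both sexes, plated overnight in DMEM before treatment, and each condition was 1 library. Whether the 7 libraries came from 1 preparation of MEFs is not given in the sources used here. Cells of 3 conditions spent 10 hours without glucose, without glutamine, or at 0.1% oxygen (hypoxia). ER stress came from 1 µM thapsigargin for 10 hours, while 3 hours of 10 µM sodium arsenite served as oxidative stress and 3 hours of 100 mM extra NaCl as osmotic stress. Thapsigargin blocks the calcium pump of the ER, and arsenite binds thiol groups. All 6 changes were taken against the same control library, so they share its error, and treatment and time cannot be told apart where the times differ. When the control was collected relative to the treatments is not given in the sources used here, nor is a change of its medium. Differences of time or medium from the control therefore cannot be told apart from treatment.

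The lysosome is the acidic compartment in which cells break down proteins, glycans and lipids. A proton pump of the vacuolar type (V-ATPase), made of a cytosolic V1 sector that splits ATP and a V0 sector in the membrane, acidifies the lumen so that the hydrolases can work. The MiT-TFE factors TFEB, TFE3 and MITF bind the E-box CACGTG in promoters of many lysosomal genes, and nutrient signals through mTORC1 hold them in the cytosol, so that their activity is set largely by location and not by transcript level.

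Expression was deposited as TPM, the share of each transcript in a library scaled to a total of 1000000 and summed over the transcripts of a gene. Without replicates no difference could be set against the spread between cultures, and no p-value is given. TPM keeps no read count, so the depth is unknown and no counting interval can be given. Changes are differences in log2(TPM + 1), a scale that understates the change of low genes, and a gene was counted as risen or fallen past 2-fold. All 39 members were among the 12909 genes kept, those whose mean over the libraries reached 2 TPM. Over all kept genes, the median change of -0.16 under oxidative stress and of -0.12 under osmotic stress compared with values within 0.1 of 0 in the other 4 conditions. Between 19819 and 21154 genes were above 0 TPM in each library, and mitochondrially encoded genes took 5.09% to 9.25% of the TPM.

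The fibroblast label held on its markers, since 10 of 10 passed the filter, with Col1a1 at 3154 TPM and Vim at 3568 TPM in the control. The study's methods describe a sort of MEFs that removed cells with the leukocyte and macrophage surface markers CD45, CD11b and F4/80. Macrophage markers summed to 7.19 to 16.8 TPM over 10 genes, and only Cd68, itself a lysosomal protein, passed the filter. The leukocyte gene Ptprc was at most at 0.280 TPM and the macrophage gene Adgre1 at most at 0.110 TPM, each at 0 in some libraries. Itgam, the gene for CD11b, is listed under separate identifiers. These were highest in osmotic stress, at 0.944 and 1.99 TPM, against 0.0317 and 0 TPM in the control. Csf1r reached 2.25 TPM in osmotic stress and Lyz2 2.23 TPM without glutamine. Osteoclast markers summed to 16.3 to 75.1 TPM over 7 genes, with Acp5 and Nfatc1 kept, and the upper end came from Nfatc1, at 61.7 TPM in glutamine depletion against 14.5 TPM in the control. Endothelial, epithelial and melanocyte lists summed to at most 9.07, 11.8 and 2.55 TPM. From these only Kdr, at most at 4.23 TPM, and Krt18 passed the filter. Krt18 was highest in ER stress, at 10.6 TPM against 5.56 TPM in the control. In these bulk cultures, fewer cells of a type and less RNA per cell cannot be told apart.

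Promoters were searched because the E-box is the element through which MiT-TFE factors act. RefSeq windows from 250 bases before to 50 bases after the start of a transcript (GRCm38.p6) were matched for 33 of the 39 members, and each motif was read on both strands. CACGTG was in a window of 12 of 33 members (36.4%), against 8.09% of 27025 genes. The 8-letter forms that contain it, GTCACGTG and TCACGTGA, which overlap where they share the core, were in 8 members (24.2%, against 2.55% of all genes) and in 6 members (18.2%, against 1.12%). The M-box TCATGTGA was in 5 members (15.2%, against 1.15%), namely Atp6v0c, Gla, Grn, Ppt1 and Tpp1. The unfolded protein response element TGACGTGG was in 0 of 33, against 0.714% of all genes. A match describes the letters and is no evidence of binding.

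The following upstream windows are shown for the lysosomal membrane protein Lamp1, whose window held 4 cores, for the glycosidase Glb1 and the pump subunit Atp6v1a, with 1 core each, and for Gusb, the member that fell most in any condition, whose window held none. Capitals mark the core with the letters of an 8-letter form where these were present. Lamp1 is shown on the plus strand at chr8:13159041-13159160, Glb1 on the plus strand at chr9:114400958-114401075, Atp6v1a on the minus strand at chr16:44139320-44139439, and Gusb on the minus strand at chr5:130003050-130003169. The stretches of Lamp1 and Gusb end at the base before the transcript start, that of Glb1 3 bases and that of Atp6v1a 61 bases before it. None of these 4 stretches overlapped an annotated exon. That of Atp6v1a lies before the RefSeq start but inside the annotated gene, which spans chr16:44085402-44139705.
Lamp1: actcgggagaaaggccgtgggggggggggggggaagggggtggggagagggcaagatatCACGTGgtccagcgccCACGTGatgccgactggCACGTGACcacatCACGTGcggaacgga
Glb1: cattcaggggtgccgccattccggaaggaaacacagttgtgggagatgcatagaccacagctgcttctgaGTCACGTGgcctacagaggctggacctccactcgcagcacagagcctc
Atp6v1a: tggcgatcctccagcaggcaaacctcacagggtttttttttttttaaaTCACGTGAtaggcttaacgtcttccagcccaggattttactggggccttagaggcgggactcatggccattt
Gusb: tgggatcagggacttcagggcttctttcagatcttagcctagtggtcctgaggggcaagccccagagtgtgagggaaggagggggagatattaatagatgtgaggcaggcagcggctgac

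Shorter sites that hold an 8-letter form are shown for further members. They come from Ctsd (chr7:142387910-142387935, minus strand), the nearer to the start of a pair in Gla (chrX:134601184-134601209, minus strand), the calcium channel gene Mcoln1 (chr8:3500464-3500489, plus strand) and the pump subunit Atp6v0d1 (chr8:105566052-105566077, minus strand), where the core began 3 bases before the start.
Ctsd: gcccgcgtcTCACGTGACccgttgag
Gla: agatctcgGTCACGTGAgcaactctc
Mcoln1: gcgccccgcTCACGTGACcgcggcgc
Atp6v0d1: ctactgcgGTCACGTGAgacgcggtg

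Under ER stress most lysosomal hydrolases were lower than in the control, and under osmotic stress most were higher. The median change over the 39 genes was -0.48 in ER stress and 0.17 in osmotic stress, the latter 0.29 relative to the median of all genes. In ER stress 3 of the 39 members fell by more than 2-fold (Gusb, Gla and Ctsk) and 0 rose, where 11.0% of all kept genes fell and 8.60% rose. Members below the control by any amount numbered 30 of 39, against 48.5% of all genes, and 20 of these were among the 21 proteins of the lumen. The 3 that fell are protein-coding genes at chr5:129989011-130003049 (Gusb, minus strand), chrX:134588149-134601125 (Gla, minus strand) and chr3:95499256-95509362 (Ctsk, plus strand) of GRCm38. At 1.5-fold, 10 members were lower, all in the lumen, against 21.3% of all genes, and 2 were higher (Npc1 and Tfe3), against 19.0%. The ER stress library was the lowest of the 7 for 26 of 39 members, against 23.9% of all genes.

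In osmotic stress no member passed 2-fold, where 3.08% of all genes rose and 8.76% fell. Members above the control by any amount numbered 33 of 39, against 36.7% of all genes, and 20 of the 21 lumenal genes were among them, Neu1 being the exception. Only Tfe3 passed 1.5-fold upward, against 6.56% of all genes. The osmotic stress library was the highest of the 7 for 23 of 39 members, against 13.5% of all genes.

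In both nutrient depletions the members lay below the control by small amounts, with medians of -0.24 without glucose and -0.11 without glutamine, against -0.02 and -0.09 for all genes. Without glutamine this depended on the scaling, since 24 members lay below and 15 above the median of all genes, and relative to it the medians of cathepsins and membrane proteins were 0.03 and 0.02. Without glucose 37 lay below it. In glucose depletion 0 members rose and 0 fell past 2-fold (1.83% and 2.41% of all genes), but 37 of 39 were lower by any amount, against 53.7% of all genes, and these included all 36 members other than the MiT-TFE factors. At 1.5-fold 3 were lower (Neu1, Gla and Atp6v1e1), against 6.23%. In glutamine depletion 1 member fell past 2-fold (Atp6v1b2) and 0 rose, where 3.21% of all genes fell and 3.21% rose. That split of all genes was 414 up and 414 down, and 476 up and 319 down after the changes were centred on the all-gene median. Members below the control numbered 32 of 39, against 60.0%. At 1.5-fold 2 were lower (Atp6v1b2 and Neu1), against 10.6%, and 2 were higher (Tfeb and Tfe3), against 7.47%.

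Hypoxia and oxidative stress had medians over the 39 genes of 0.03 and 0.04. Relative to the median of all genes these were 0.08 and 0.20, where glutamine depletion was nearer to 0, at -0.02, and glucose depletion was at -0.21. No member passed 2-fold or 1.5-fold in either condition. At 1.5-fold 7.23% of all genes were higher and 8.10% lower in hypoxia, and 7.27% were higher and 16.2% lower in oxidative stress. In hypoxia 3.57% of all genes rose and 2.64% fell past 2-fold, and 23 of 39 members were higher by any amount, against 42.8%. In oxidative stress 3.94% rose and 4.85% fell, a split of 508 up and 626 down that became 613 up and 413 down after centring, and 16 of 39 members were lower by any amount, against 66.0%.

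**Figure D1:**
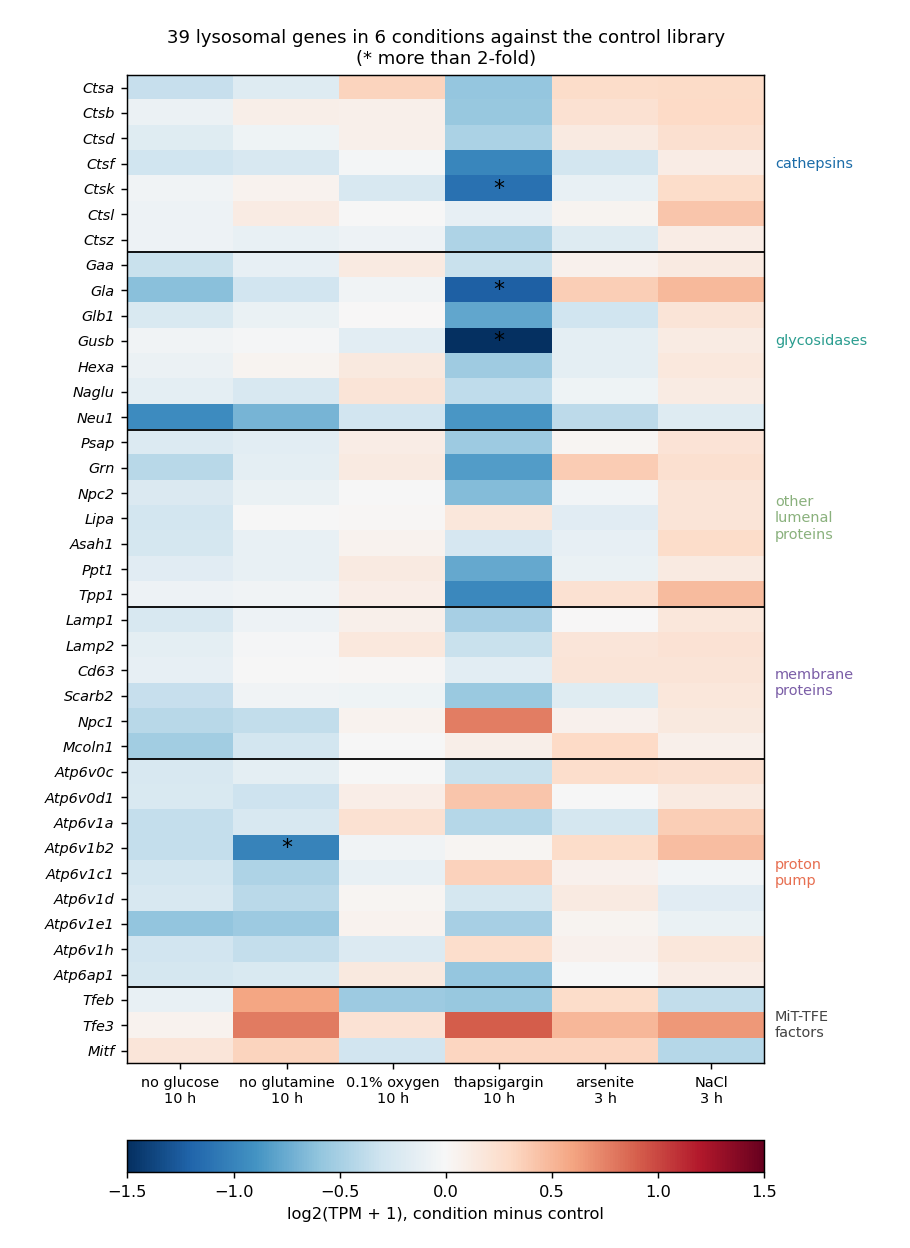
Heatmap of the change in log2(TPM + 1) of each of the 39 genes (vertical axis, by role) in the 6 conditions against the control library (horizontal axis, with the hours of treatment), 1 library per condition, with blue lower and red higher. The 4 starred cells are the changes past 2-fold, namely Ctsk, Gla and Gusb in ER stress and Atp6v1b2 in glutamine depletion.

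The cathepsins are the proteases of the lysosome. Their median change was -0.57 in ER stress, with 7 of 7 lower, against 48.5% of all genes. In osmotic stress it was 0.27, with 7 of 7 higher, against 36.7% of all genes. It lay between -0.09 and 0.04 in the other conditions. Ctsd, the main aspartic protease and the most abundant member by mean TPM, was at 1516 TPM in the control, 1331 without glucose, 1453 without glutamine, 1594 in hypoxia, 1086 in ER stress, 1661 in oxidative stress and 1794 in osmotic stress. Its log2 change was thus -0.48 in ER stress and 0.24 in osmotic stress. Ctsd shared 34.4% of its exon bases with Gm49369, a readthrough gene model on the same strand, with 416 TPM in control cells against 204 TPM under ER stress, and the sum of both genes differed by -0.58 in ER stress. How the reads were split between them cannot be told from TPM.

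Ctsk, the cysteine protease that cuts collagen, was the cathepsin with the widest range. It was at 157 TPM in the control, 151 without glucose, 163 without glutamine, 132 in hypoxia, 71.5 in ER stress, 145 in oxidative stress and 189 in osmotic stress. ER stress stood apart from the other 6 libraries, with a log2 change of -1.12. Ctsf, another cysteine protease, was at 10.5 against 21.6 TPM there. These levels are more than 2-fold apart, but the log2(TPM + 1) change was -0.98, and with a pseudocount of 0.1 TPM it was -1.03, past 2-fold. Ctsl, a cysteine protease abundant in fibroblasts, was the cathepsin closest to the control in ER stress, at 849 against 924 TPM (-0.12), and the one with the largest difference in osmotic stress, at 1230 TPM (0.41). Ctsa, which protects other lysosomal enzymes as well as cutting peptides, reached its highest level in hypoxia, at 672 against 531 TPM (0.34).

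The glycosidases remove sugars from glycoproteins, glycolipids and glycosaminoglycans. Their median was -0.78 in ER stress, the lowest of the 6 groups in any condition. There 7 of 7 were lower, against 48.5% of all genes, and 2 fell past 2-fold, against 11.0%. Gusb, which removes glucuronic acid from glycosaminoglycans, was at 82.8 TPM in the control, 79.6 without glucose, 82.0 without glutamine, 73.9 in hypoxia, 28.5 in ER stress, 74.6 in oxidative stress and 90.3 in osmotic stress. Gusb thus lay between 73.9 and 90.3 TPM everywhere but in ER stress, where it fell by 1.51 on the log2 scale.

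Gla, the α-galactosidase whose loss causes Fabry disease, varied most of all the members. Its level was 27.4 TPM in the control, 17.4 without glucose, 22.3 without glutamine, 26.4 in hypoxia, 11.2 in ER stress, 35.5 in oxidative stress and 38.7 in osmotic stress. The log2 change was -1.22 in ER stress, -0.62 in glucose depletion and 0.48 in osmotic stress. Neu1, the lysosomal sialidase, was below the control in all 6 treated libraries, at 33.9 TPM in the control and 17.1 without glucose, 20.5 without glutamine, 27.7 in hypoxia, 18.1 in ER stress, 25.7 in oxidative stress and 29.7 in osmotic stress. The control was the highest library for 1 of the 39 members and for 1507 of the 12909 kept genes. The change of Neu1 in glucose depletion, -0.95, was the lowest of the 39 in that condition. Gaa, which breaks down glycogen, and Hexa, a subunit of β-hexosaminidase, differed from the control by at most 0.53 log2 units in any library. Glb1, the β-galactosidase, was at 38.0 against 66.2 TPM in ER stress (-0.78), and Naglu, which acts on heparan sulfate, at 21.7 against 28.6 TPM (-0.38).

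Of the other lumenal proteins, 6 of 7 were lower in ER stress, against 48.5% of all genes, with a median of -0.65. In osmotic stress 7 of 7 were higher, against 36.7% of all genes, with a median of 0.20. Tpp1, a peptidase lost in a childhood neuronal ceroid lipofuscinosis, had the widest range. It was at 196 TPM in the control, 186 without glucose, 190 without glutamine, 210 in hypoxia, 99.8 in ER stress, 231 in oxidative stress and 274 in osmotic stress, so that its change was -0.97 in ER stress and 0.48 in osmotic stress. Grn, the precursor of the granulins, was at 192 TPM in ER stress against 344 TPM in the control (-0.84) and was highest in oxidative stress, at 447 TPM (0.38). Lipa, the acid lipase that frees cholesterol from its esters, was the exception in ER stress, at 69.5 against 61.7 TPM (0.17). Ppt1, a thioesterase, and Npc2, which passes cholesterol on to NPC1, differed by -0.77 and -0.65 in ER stress, and Psap, the precursor of the saposins, by -0.55. Asah1, the acid ceramidase, differed by -0.26 there.

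**Figure D2:**
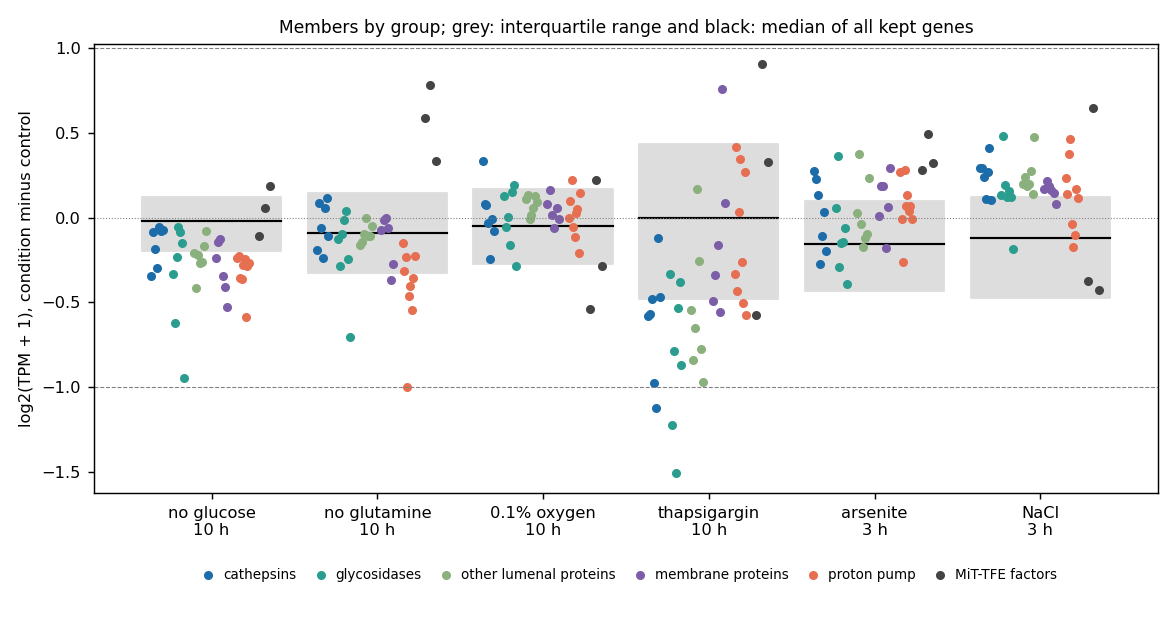
Change in log2(TPM + 1) against the control (vertical axis) for each member, as a point coloured by group, in the 6 conditions (horizontal axis), with the interquartile range (grey) and median (black line) of the 12909 kept genes and dashed lines at 2-fold. In ER stress the cathepsins and glycosidases lie below 0 throughout, with medians of -0.57 and -0.78, and in osmotic stress most members lie above 0.

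In ER stress the median of the membrane proteins was -0.25, and in glucose depletion, at -0.29, it was the lowest of the 6 groups. Lamp1, the main glycoprotein of the lysosomal membrane, was at 1075 TPM in the control, 910 without glucose, 1020 without glutamine, 1136 in hypoxia, 763 in ER stress, 1083 in oxidative stress and 1211 in osmotic stress. Lamp1 therefore had the same lowest and highest libraries as Ctsd, with changes of -0.49 in ER stress and 0.17 in osmotic stress. Lamp2, which also serves in autophagy, and Scarb2, the receptor that carries glucocerebrosidase, differed by -0.34 and -0.56 in ER stress. The tetraspanin Cd63 stayed between 1144 and 1461 TPM.

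Npc1, which exports cholesterol from the lysosome, was higher in ER stress. It was at 27.1 TPM in the control, 20.1 without glucose, 20.8 without glutamine, 28.3 in hypoxia, 46.7 in ER stress, 28.4 in oxidative stress and 30.1 in osmotic stress. Its log2 change of 0.76 in ER stress was above that of every member but Tfe3. Mcoln1, the calcium channel of the lysosomal membrane, was at 34.6 TPM without glucose against 50.3 TPM in the control (-0.53), and its highest level was 61.9 TPM in oxidative stress (0.30).

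The proton pump was the group with the lowest median in glutamine depletion, at -0.36 against -0.09 for all genes. In both nutrient depletions 9 of 9 subunits were lower, against 53.7% of all genes without glucose and 60.0% without glutamine. The 10 other pump subunits kept, outside the members, had a median of -0.14 without glutamine. Atp6v1b2, the B subunit of the V1 sector in most tissues, was at 63.4 TPM in the control, 49.1 without glucose, 31.2 without glutamine, 61.0 in hypoxia, 64.9 in ER stress, 77.3 in oxidative stress and 87.9 in osmotic stress. It fell by 1.00 on the log2 scale in glutamine depletion, at the threshold itself. The next lowest subunits there were Atp6v1e1, of the stalk that joins the sectors, at 117 against 171 TPM (-0.54), and Atp6v1c1, of the same region, at 44.3 against 61.4 TPM (-0.46). Atp6v1e1 was also the lowest without glucose, at 113 TPM (-0.59).

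In ER stress 4 of the 9 pump subunits were higher and 5 lower, near the share of all genes, of which 48.5% were lower. The 4 were Atp6v0d1, the V0 subunit that couples the sectors, at 245 against 183 TPM (0.42), Atp6v1c1, at 78.4 against 61.4 TPM (0.35), Atp6v1h, a regulatory V1 subunit, at 98.5 against 81.6 TPM (0.27), and Atp6v1b2 (0.03). Atp6ap1, an accessory protein needed for assembly, was the lowest at 257 against 384 TPM (-0.58), followed by Atp6v1e1 (-0.50), the catalytic subunit Atp6v1a (-0.43), the proton-carrying ring subunit Atp6v0c (-0.33) and the V1 subunit Atp6v1d (-0.26). In osmotic stress Atp6v1a and Atp6v1b2 had the largest differences, of 0.37 and 0.46.

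**Figure D3:**
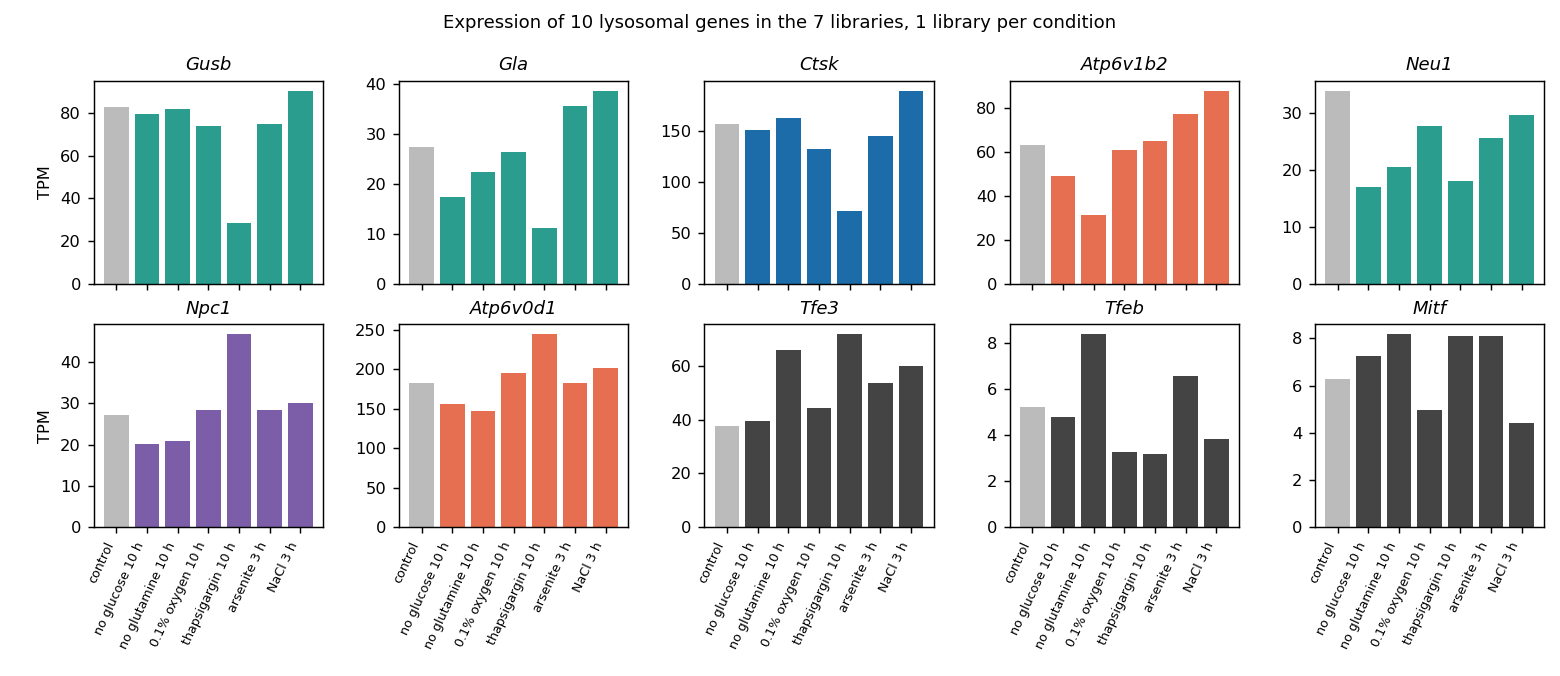
TPM (vertical axis, from 0) of 10 members in each of the 7 libraries (horizontal axis), 1 library per condition and so no error bars, with the control in grey. Gusb, Gla and Ctsk are lowest in ER stress, Atp6v1b2 is lowest without glutamine at 31.2 TPM, and Npc1, Atp6v0d1 and Tfe3 are highest in ER stress.

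The MiT-TFE factors had the highest median of the 6 groups in both nutrient depletions, ER stress and oxidative stress, and the lowest in hypoxia and osmotic stress. In these last conditions the medians were -0.29 and -0.37, but the summed levels were 52.5 and 68.1 TPM, above 49.3 TPM in the control. The median rests on 3 genes. Tfe3 was the most abundant of them, at 37.8 TPM in the control, 39.3 without glucose, 65.8 without glutamine, 44.3 in hypoxia, 71.8 in ER stress, 53.6 in oxidative stress and 59.8 in osmotic stress. All 6 treated libraries were above the control, with log2 changes of 0.91 in ER stress, 0.78 in glutamine depletion and 0.65 in osmotic stress, none of them past 2-fold. The control was the lowest library for 1 of the 39 members and for 841 of the 12909 kept genes. Tfeb was at 5.23 TPM in the control, 4.79 without glucose, 8.38 without glutamine, 3.29 in hypoxia, 3.19 in ER stress, 6.57 in oxidative stress and 3.81 in osmotic stress. Its level was thus highest without glutamine (0.59) and lowest in ER stress (-0.57). Mitf was at 6.27 TPM in the control, 7.27 without glucose, 8.18 without glutamine, 4.96 in hypoxia, 8.11 in ER stress, 8.11 in oxidative stress and 4.41 in osmotic stress. Tfeb and Mitf were the lowest members by TPM in every library, and the reads behind these values are unknown. Their median of 0.59 in glutamine depletion stood beside medians between -0.36 and -0.06 for the 5 lysosomal groups.

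Summed over all members, lysosomal transcripts made up 11264 TPM in the control, or 1.13% of the library. The sums were 9786 TPM without glucose, 10654 without glutamine, 11826 in hypoxia, 8630 in ER stress, 11992 in oxidative stress and 13185 in osmotic stress. The 21 lumenal genes carried most of that range, from 4822 TPM in ER stress to 8084 TPM in osmotic stress, against 6751 TPM in the control. The pump sum was lowest in the nutrient depletions, at 1280 TPM without glucose and 1281 TPM without glutamine against 1571 TPM, where ER stress gave 1359 TPM.

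**Figure D4:**
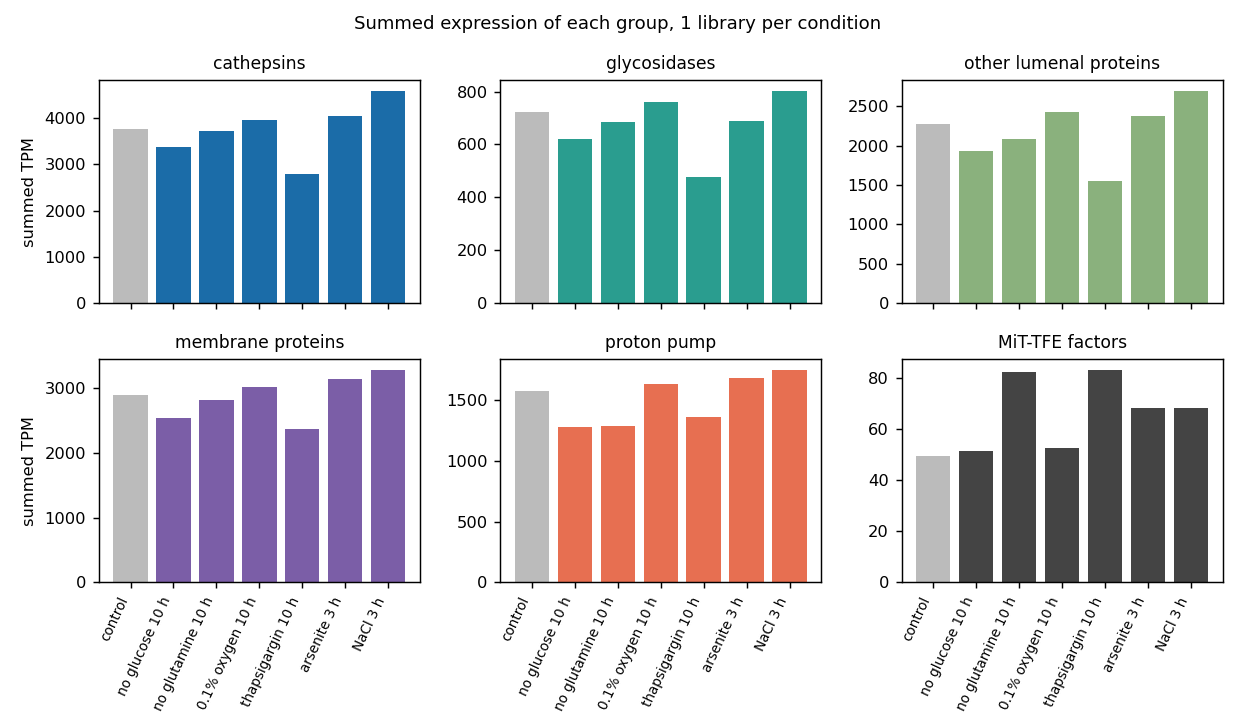
Summed TPM (vertical axis, from 0) of the members of each group in the 7 libraries (horizontal axis), 1 library per condition and so no error bars, with the control in grey. The cathepsin sum runs from 2791 TPM in ER stress to 4586 TPM in osmotic stress, while the pump sum is lowest at 1280 TPM without glucose.

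The fibroblast markers moved with the ER stress result. They were lower in 10 of 10 cases there, against 48.5% of all genes, with a median of -0.86. Of these markers 3 fell past 2-fold, against 11.0% of all genes, namely Col3a1 (-2.07), Lum (-2.33) and Pdgfrb (-1.15). Their sum was 8766 TPM in ER stress and 13858 to 16304 TPM in the other libraries. The part of this in the lysosomal result was not tested. The markers had a median of 0.19 in osmotic stress.

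Related lysosomal genes outside the 39 were read from 5 further lists. Of 24 other hydrolases kept, 23 were lower in ER stress, against 48.5% of all genes, with a median of -0.51, and 4 fell past 2-fold, against 11.0%. These were the asparaginyl protease Lgmn, at 35.5 against 116 TPM (-1.69), the β-mannosidase Manba (-1.23), the galactosylceramidase Galc (-1.10) and the cathepsin Ctso (-1.05). In oxidative stress 2 of them fell, against 4.85% of all genes, the hyaluronidase Hyal2 (-1.19) and the phospholipase Pla2g15 (-1.10). Of these hydrolases 0 rose past 2-fold in any condition, where 1.83% to 8.60% of all genes rose. Of 7 genes for the sorting of lysosomal enzymes, 0 passed 2-fold in any condition, where 1.83% to 11.0% of all genes passed it in each direction.

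Of 10 other pump subunits kept, 9 were lower without glucose, against 53.7% of all genes, with a median of -0.31 against -0.02. Without glutamine 10 were lower, against 60.0%, with a median of -0.14 against -0.09, and 7 lay below the median of all genes. In this list 1 gene passed 2-fold in any condition, the V0 subunit Atp6v0a1, at 26.1 against 67.8 TPM in ER stress (-1.34). Of all genes 11.0% fell there. In that condition 7 of the 10 were higher and 3 lower, against 48.5% of all genes lower, with a median of 0.09. In hypoxia 3 of the 10 were lower past 1.5-fold, against 8.10% of all genes. Of 19 other membrane proteins, 2 fell past 2-fold, both without glutamine, where 3.21% of all genes fell. They were the cystine exporter Ctns, at 7.71 against 25.9 TPM (-1.63), and Tmem55b, which helps to position lysosomes in the cell, at 34.5 against 73.2 TPM (-1.06). Without glucose the same pair was at 13.3 and 36.9 TPM. Of 16 genes on a list linked to the MiT-TFE factors, the folliculin partner Fnip1 fell without glutamine, at 8.34 against 19.3 TPM (-1.12), where 3.21% of all genes fell. Its relative Fnip2 rose in oxidative stress, at 39.7 against 17.1 TPM (1.17), where 3.94% of all genes rose. In osmotic stress 36.7% of all genes were higher, with a median of -0.12. There 8 of the other membrane proteins were higher and 11 lower (median -0.10), as were 5 and 5 other pump subunits (-0.03). Of the other hydrolases 17 were higher and 7 lower (0.19), of the sorting genes 5 and 2 (0.03), and of the genes linked to the MiT-TFE factors 10 and 6 (0.08).

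Of the 39 members, 13 shared annotated exon bases with another gene, 11 of them with a gene on the opposite strand. The library kit marks strand, but counting at default settings does not use it, so reads of such pairs cannot be told apart in the shared bases. Among the genes described in every library above, these were Lamp1, with 9.31% of its exon bases shared with Grtp1 (at most 3.94 TPM), and Npc1, with 4.52% shared with Rmc1 (28.3 TPM in ER stress against 35.6 TPM in the control). The pseudogene Cd63-ps was at most at 4.73 TPM.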

How the data were processed

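RNA-seq libraries of MEFs, 1 from each of 7 conditions, were assigned to conditions by their treatment labels. The authors pseudoaligned reads to mouse cDNA transcripts and deposited TPM summed per gene (kallisto 0.43.1 and GRCm38 in the submitters' processing notes). Such values are shares of a library, so a rise in some genes lowers the rest. From them log2(TPM + 1) was computed and the control subtracted. Kept were the 12909 of 49382 genes that averaged 2 TPM or more across the 7 libraries, and a change past 2-fold was counted, with no test, since no condition had a replicate. Locations and exon overlaps came from the GENCODE M21 annotation of GRCm38, and promoter windows from RefSeq. Values in every library are given for Lamp1, Ctsd, the 3 MiT-TFE factors, members past 2-fold and the member of widest range in each group, and from the pathway lists genes past 2-fold are named. Other values, those of Neu1 in every library included, were chosen after they were seen. The members and lists were chosen with earlier results of these data known. Alternatives were pseudocounts of 0.1 and 5 TPM, centring, removal of 37 mitochondrially encoded genes, an average of 10 TPM or more or no filter, and thresholds of 1.5-fold and 3-fold. The median of the other 5 treated libraries as reference was added after seeing the data. Scripts were tested on simulated data. The software was Python 3.11.15 with pandas 2.3.3, numpy 2.4.6 and, for the plots, matplotlib 3.10.9.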

Additional observations from a re-analysis of the deposited data

How the results depend on the processing

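No paired analysis was possible because each condition had 1 library, and for the same reason no replicate could be left out and the spread between cultures is not known. A median was counted as moved past 0.1 log2 units and a count past 1.5 times. The settings run on single members could not reverse the sign of a change past 2-fold. A pseudocount keeps the sign, and centring subtracted all-gene medians of -0.16 to 0. All 39 members passed the filter, so leaving it out could not move a group median. The group medians kept within 0.1 log2 units with a pseudocount of 0.1 TPM and with mitochondrially encoded genes removed. That removal rescaled each library by a share of only 5.09% to 9.25%, so little movement was possible. Where values moved otherwise than by the construction of the setting, the cause was not tested. Conditions are in the order glucose depletion, glutamine depletion, hypoxia, ER stress, oxidative stress and osmotic stress. The single member past 2-fold in glutamine depletion, Atp6v1b2, gave a count of 0 with a pseudocount of 5 TPM, after centring, with mitochondrially encoded genes removed and at 3-fold. With a pseudocount of 0.1 TPM Ctsf passed 2-fold in ER stress, at -1.03. Of the 234 changes of single members, centring moved 78 by over 0.1 and pseudocounts of 5 and 0.1 TPM moved 13 and 2. At 3-fold the members lower in ER stress also numbered 0. At 1.5-fold, members numbered 3 lower in glucose depletion, 2 higher and 2 lower in glutamine depletion, 2 higher and 10 lower in ER stress and 1 higher in osmotic stress.

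Of all kept genes, those up past 2-fold in the 6 conditions numbered 236, 414, 461, 1110, 508 and 397, and those down 311, 414, 341, 1421, 626 and 1131. With a pseudocount of 5 TPM, 140, 249 and 301 rose in the first 3 conditions, 338 under oxidative stress and 245 under osmotic stress, and 197, 183, 200, 778, 242 and 422 fell in the 6. Without a filter 541, 720, 857, 1702, 912 and 924 rose, and 669, 737 and 673 fell in the first 3 conditions and 1002 in oxidative stress. With a mean of at least 10 TPM, 66, 214, 176, 676, 232 and 158 rose and 92, 142, 131, 835, 250 and 434 fell. At 1.5-fold, 448, 964, 933, 2447, 939 and 847 rose and 804, 1374, 1046, 2746, 2092 and 2522 fell. At 3-fold, 155, 208, 276, 437, 297 and 213 rose, and 164, 187, 556, 207 and 435 fell in the 5 conditions other than glucose depletion. After centring, 413 fell in oxidative stress. Against the median of the other 5 treated libraries, 226 fell in glutamine depletion and 289 in oxidative stress.

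Centring set the medians in oxidative stress to 0.19 for cathepsins, 0.0105 for glycosidases, 0.12 for other lumenal proteins, 0.28 for membrane proteins, 0.22 for the proton pump and 0.48 for MiT-TFE factors, so that glycosidases and other lumenal proteins changed sign. Within 0.1 units, cathepsins and membrane proteins also changed sign in glutamine depletion (0.03 and 0.02) and cathepsins in hypoxia (0.04). In osmotic stress it set them to 0.39, 0.25, 0.32, 0.29, 0.26 and -0.25 in the same order. The MiT-TFE median, over 3 genes of which 2 are low, was 0.39, -0.18, 0.22, 0.22 and -0.22 in the 5 conditions from glutamine depletion on with a pseudocount of 5 TPM. With a mean of at least 10 TPM, which leaves Tfe3 alone, it was 0.78, 0.22, 0.91, 0.49 and 0.65, with the sign changed in hypoxia and osmotic stress. Against the other 5 treated libraries it was -0.14, 0.29, -0.43, 0.14, 0.14 and -0.27. That reference gave glycosidases 0.24 in hypoxia, -0.57 in ER stress, 0.0885 under oxidative stress and 0.27 under osmotic stress, and the proton pump 0.15, -0.0878, 0.27 and 0.37 in these. In osmotic stress it gave cathepsins 0.38 and other lumenal proteins 0.36.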

Other observations

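The 2 nutrient depletions can be set against each other directly, since both lasted 10 hours and the control cancels. Without glutamine, the cathepsins, glycosidases, other lumenal proteins and membrane proteins were higher than without glucose by medians of 0.13, 0.14, 0.13 and 0.15 in log2 units, where all kept genes differed by -0.04. All 7 of the other lumenal proteins and all 6 membrane proteins were higher, as were 6 of 7 cathepsins and 6 of 7 glycosidases. Of the 12909 kept genes 5605 were higher. The proton pump differed by -0.07, with 4 of 9 subunits higher and Atp6v1b2 lowest at -0.64. The 3 MiT-TFE factors were all higher without glutamine, by a median of 0.70. There was 1 library on each side and no test.

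In ER stress the 12 members with the E-box CACGTG in a promoter window had a median log2 change of -0.46 and the 21 matched members without it a median of -0.55. In glucose depletion the medians were -0.27 with it and -0.17 without it, in glutamine depletion -0.21 and -0.06, in hypoxia 0.08 and 0.01, in oxidative stress 0.02 and 0.03, and in osmotic stress 0.18 and 0.17. The members without it include the 3 MiT-TFE factors, and this split was made after the values were seen.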
